A study of Mus musculus with 12 samples.

Results

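The genes described here are 45 cell cycle genes, chosen by name, and all 45 were found among the 18601 genes of the deposited matrix. By role they comprise 17 S-phase genes (Ccne1, Ccne2, Cdc6, Cdc45, Gins2, Mcm2 to Mcm7, Pcna, Rrm1, Rrm2, Tyms, Tk1 and Uhrf1) and 24 mitotic genes (Mki67, Top2a, Birc5, Ccna2, Ccnb1, Ccnb2, Cdk1, Cdc20, Ube2c, Bub1, Bub1b, Aurka, Aurkb, Plk1, Cdca3, Cdca8, Cenpa, Cenpe, Cenpf, Kif11, Kif20a, Kif23, Tpx2 and Nusap1). The remaining 4 are genes of general growth (Hmgb2, Stmn1, Tubb5 and Tuba1b). They were measured in mouse CD4 T cells by droplet single-cell RNA sequencing with 10x Chromium 3′ version 2 chemistry, in 12 libraries. The recipient mice had been given T helper 1 (Th1) cells of 1 of 2 genotypes: Il23reGFP/eGFP, with no wildtype Il23r allele and called KO here, or Il23rwt/eGFP, called control here. Both kinds of transferred cell carried the eGFP allele, and the strain, age and treatment of the recipients are not given in the sources used here. Colon epithelium and small intestine lamina propria gave 1 KO and 1 control library each, all numbered 2. Colon lamina propria and spleen gave 2 KO and 2 control libraries each, numbered 1 and 2. The number equals the Batch value of the deposited cell table for all 32763 cells, so that batch 1 held 4 libraries and batch 2 held 8.

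A dividing cell copies its DNA in S phase and parts the copies in mitosis. Replication genes are switched on before S phase, largely through E2F transcription factors, whereas genes for the mitotic kinases, the spindle and the kinetochore peak later, in G2 and mitosis, and many of their proteins are destroyed as the cell divides. A T cell that meets its antigen can leave quiescence and divide repeatedly, and T cells in lymphoid organs and in gut tissue include both dividing and resting cells.

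All levels below come from CD3-positive cells, defined as cells with 3 or more unique molecular identifiers (UMIs, counted transcripts) of Cd3d, Cd3e and Cd3g together. These were 29623 of the 32763 cells (90.4%), 764 to 3661 per library. A level is given in CPM, UMIs of the gene per 1e6 UMIs of a library's CD3-positive cells, of which there were 1902990 to 13248318. The median cell had 3938 to 5690 UMIs in batch 1 and 2273 to 3033 in batch 2. A Cd4 UMI was found in 41.1% to 78.0% of the cells and a Cd8a UMI in 0.0278% to 2.56%. Il23r itself was measured at 0.314 to 4.204 CPM in KO libraries and 0.605 to 3.09 CPM in control libraries. Whether the counted 3′ end lies in the part that the eGFP allele replaces is not given, so these counts do not check the genotype. Summed marker levels in the CD3-positive cells ran from 4.67 to 149 CPM for macrophages and monocytes, from 1.28 to 4.17 CPM for B cells, from 0 to 1509 CPM for erythroid cells (highest in colon lamina propria control 1) and from 1.29 to 324 CPM for epithelial cells (highest in colon epithelium KO). Spleen KO 2 had 217 CPM of erythroid markers. Without the 919 CD3-positive cells that bore markers of another cell type, 8 of the 45 genes fell in colon lamina propria over spleen, beside 9 with them, and the median over the mitotic genes was -1.60, beside -1.55. Of all cells, 1363 (4.16%) carried a barcode found in more than 1 library. The pair with the most, spleen control 2 and spleen KO 2, shared 27, beside 20.9 expected at random. Relative to the smaller library the largest share was 1.01%, in spleen control 1 with colon lamina propria KO 1 (14, beside 5.67 expected).

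As sums of unscaled CPM, the S-phase and mitotic genes were higher in each spleen library than in each colon or small intestine lamina propria library. Among them 1 spleen library stood above the rest. The summed S-phase level was 822 CPM in colon epithelium KO and 956 CPM in colon epithelium control, and 420.4 CPM in small intestine KO and 755 CPM in small intestine control. Colon lamina propria KO 1 and 2 had 507 and 660.1 CPM and its control libraries 1 and 2 had 382 and 805 CPM. Spleen KO 1 and 2 had 876 and 1572 CPM and spleen control 1 and 2 had 1182 and 886 CPM. Every colon lamina propria library lay below every spleen library, colon lamina propria control 2 by the least.

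The mitotic sum spread wider. It was 785 CPM in colon epithelium KO and 1202 CPM in colon epithelium control, and 310.0 CPM in small intestine KO and 719.5 CPM in small intestine control. Colon lamina propria had 343 and 584 CPM in KO 1 and 2 and 297 and 1054 CPM in control 1 and 2. Spleen had 1219 and 2779.9 CPM in KO 1 and 2 and 1389 and 1388.5 CPM in control 1 and 2. The ratio of the mitotic to the S-phase sum was 1.18 to 1.77 in the 4 spleen libraries. It was 0.677 to 0.885 in 3 of the colon lamina propria libraries and 1.31 in colon lamina propria control 2.

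**Figure D1:**
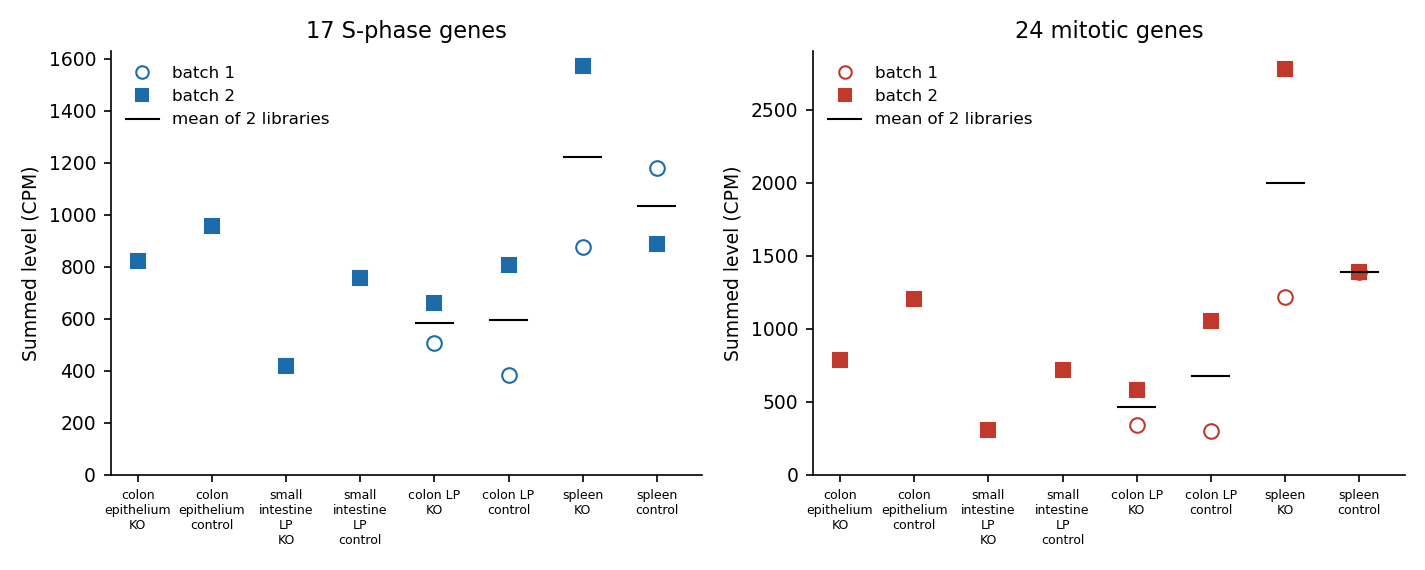
Summed level in CPM of the 17 S-phase genes (left) and the 24 mitotic genes (right) in the 12 libraries, by tissue and genotype of the transferred cells. Open circles are batch 1, filled squares are batch 2 and the short lines are means of 2 libraries. Spleen KO 2 is the highest point of both panels, at 1572 and 2779.9 CPM.

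Spleen KO 2 was the highest of the 12 libraries for 24 of the 24 mitotic genes, 15 of the 17 S-phase genes and 4 of the 4 general growth genes. The exceptions were Ccne1, which encodes cyclin E1, and Pcna, the sliding clamp of DNA polymerase, both highest in spleen control 1. The lowest library of the 17 S-phase genes was colon lamina propria control 1 for 9 genes and small intestine KO for 8. Single genes spanned very different ranges over the libraries. Plk1, a kinase that drives spindle assembly, had its highest level 32.0 times its lowest, Rrm2, the regulated subunit of ribonucleotide reductase, 19.6 times, Mki67, a protein that coats mitotic chromosomes, 11.9 times, and Pcna 2.12 times. The lowest values of Ccne1, Cdc6 and Kif20a rest on 2 or 3 UMIs, so no such ratio is given for them.

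The promoters of S-phase and mitotic genes differed in their letters, and a few are shown because the 2 groups of genes also differed in the data. The sequences are RefSeq windows on GRCm38.p6, from 250 bases before to 50 bases after the annotated start, printed 5′ to 3′ on the strand of the gene. Capitals in the first pair mark E2F letters (TTTCCCGC or TTTGGCGC, or their reverse complements GCGGGAAA and GCGCCAAA). Capitals in the other 3 mark TTTGAA, the letters of the cell cycle homology region bound by the DREAM complex (reverse complement TTCAAA), and CCAAT, the box bound by NF-Y (reverse complement ATTGG). The windows are Cdc6, which loads the replicative helicase, at chr11:98907901-98908200 on the plus strand, and Mcm6, a subunit of that helicase, at chr1:128359656-128359955 on the minus strand. Those of the mitotic genes are Ccnb2 (cyclin B2) at chr9:70421505-70421804 on the minus strand, Plk1 at chr7:122159185-122159484 on the plus strand and Mki67 at chr7:135716330-135716629 on the minus strand.
Cdc6: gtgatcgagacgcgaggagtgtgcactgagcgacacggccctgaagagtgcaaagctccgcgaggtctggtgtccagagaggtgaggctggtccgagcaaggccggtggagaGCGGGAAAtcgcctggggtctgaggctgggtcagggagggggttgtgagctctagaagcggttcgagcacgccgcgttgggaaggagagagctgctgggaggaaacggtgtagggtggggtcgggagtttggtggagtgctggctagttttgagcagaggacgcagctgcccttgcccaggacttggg
Mcm6: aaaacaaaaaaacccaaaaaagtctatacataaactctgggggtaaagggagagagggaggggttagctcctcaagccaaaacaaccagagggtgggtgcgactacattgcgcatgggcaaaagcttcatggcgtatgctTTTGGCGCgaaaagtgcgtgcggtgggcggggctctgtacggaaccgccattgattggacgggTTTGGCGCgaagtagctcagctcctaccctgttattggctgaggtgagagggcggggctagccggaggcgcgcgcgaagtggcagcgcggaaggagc
Ccnb2: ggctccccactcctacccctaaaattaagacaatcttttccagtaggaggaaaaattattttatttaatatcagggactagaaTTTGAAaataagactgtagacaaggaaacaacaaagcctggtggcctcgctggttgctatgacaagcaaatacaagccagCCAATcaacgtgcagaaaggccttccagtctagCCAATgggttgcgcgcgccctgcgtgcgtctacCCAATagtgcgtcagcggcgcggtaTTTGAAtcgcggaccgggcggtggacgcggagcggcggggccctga
Plk1: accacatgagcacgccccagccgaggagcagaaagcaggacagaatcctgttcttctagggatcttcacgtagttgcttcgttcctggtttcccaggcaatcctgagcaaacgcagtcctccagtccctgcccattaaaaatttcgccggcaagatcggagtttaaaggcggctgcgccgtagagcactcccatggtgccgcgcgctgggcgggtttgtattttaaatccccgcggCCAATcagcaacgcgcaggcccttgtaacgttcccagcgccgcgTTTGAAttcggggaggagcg
Mki67: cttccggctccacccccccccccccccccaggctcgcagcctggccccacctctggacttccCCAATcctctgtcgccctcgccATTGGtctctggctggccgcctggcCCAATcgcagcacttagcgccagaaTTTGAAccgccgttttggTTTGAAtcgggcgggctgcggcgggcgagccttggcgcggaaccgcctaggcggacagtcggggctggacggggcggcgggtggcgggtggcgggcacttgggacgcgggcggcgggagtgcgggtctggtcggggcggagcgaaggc

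Windows were found for 14 of the 17 S-phase genes, 20 of the 24 mitotic genes and 3 of the 4 general growth genes. The E2F letters occurred on either strand in 5 of the 14 S-phase genes (35.7%: Cdc6, Mcm3, Mcm5, Mcm6 and Mcm7), in 0 of the 20 mitotic genes and in 1.80% of 27025 genes with a window. TTTGAA occurred in 15 of the 20 mitotic genes (75%), 2 of the 14 S-phase genes and 20.2% of all genes. With TTTAAA counted as well, it was 18 of the 20 mitotic genes (90%), 7 of the 14 S-phase genes (50%) and 30.6% of all genes. The contrast between the groups was thus smaller with both forms. CCAAT occurred in 18 of the 20 mitotic genes (90%), 10 of the 14 S-phase genes and 41.1% of all genes. In 14 of the 20 mitotic windows (70%) TTTGAA lay within 50 bases of the start, as it does in Ccnb2 and Plk1 above, against 4.94% of all windows. A match is a run of letters, and binding was not measured.

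Colon lamina propria was set against spleen to ask how the cell cycle genes differ between gut and lymphoid tissue. Genes of mitotic kinases, cyclins and a kinesin fell in colon lamina propria, and among the replication genes 3 fell. Plk1 had 2.11 and 6.39 CPM in colon lamina propria KO 1 and 2 and 3.12 and 14.4 CPM in controls 1 and 2 of that tissue. It had 18.8 and 67.7 CPM in spleen KO 1 and 2 and 31.5 and 28.5 CPM in spleen control 1 and 2, so the tissues did not overlap. Plk1 fell in colon lamina propria by 2.36 on the log2 scale (SE 0.59, edgeR adjusted p = 0.0277). Ccnb2, which activates the mitotic kinase CDK1, had 13.7 and 26.2 CPM in colon lamina propria KO 1 and 2 and 15.9 and 62.1 CPM in control 1 and 2. In spleen it had 144 and 183 CPM in KO 1 and 2 and 118 and 108 CPM in control 1 and 2. The group means were 29.5 ± 22.4 CPM in colon lamina propria and 138 ± 33.5 CPM in spleen (SD, n = 4 each), and Ccnb2 fell by 2.08 (SE 0.37, adjusted p = 0.0074).

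Among the S-phase genes Ccne1, whose product drives entry into S phase, had the largest difference that passed. Its level was 4.08 and 6.63 CPM in colon lamina propria KO 1 and 2 and 3.55 and 12.3 CPM in controls 1 and 2 of that tissue. In spleen it was 18.2 and 24.8 CPM in KO 1 and 2 and 25.3 and 23.0 CPM in control 1 and 2. Ccne1 fell by 1.58 on the log2 scale (SE 0.31, adjusted p = 0.0086). Rrm2 had 31.1 and 65.6 CPM in colon lamina propria KO 1 and 2 and 17.04 and 94.9 CPM in control 1 and 2. In spleen KO 1 and 2 it had 124 and 330.0 CPM and in spleen control 1 and 2 it had 165 and 179 CPM. Although the libraries of the tissues did not overlap, the Rrm2 difference of -1.72 (SE 0.55) missed the threshold of 0.05, with adjusted p = 0.0627. Pcna, at 143 ± 14.3 CPM in colon lamina propria and 178 ± 40.1 CPM in spleen (SD, n = 4 each), gave -0.06 (SE 0.20, adjusted p = 0.844). Its sign turned to 0.01 with all cells and 0.16 with cells thinned to equal depth.

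All 45 genes gave a negative value in this comparison, and 9 of them (20%) fell at an adjusted p under 0.05, against 13.1% of the 10976 genes tested that fell, 16.6% that rose and 29.7% that passed in either direction. Of all genes 1825 rose and 1437 fell; with library size alone as the scale 1197 rose, 2288 fell and the median of all genes moved to -0.25. The 6 mitotic genes among the 9 were Plk1, Ccnb2, the kinesin gene Kif20a (-2.04, SE 0.52), the cyclin gene Ccna2 (-1.92, SE 0.45), the spindle pole kinase gene Aurka (-1.54, SE 0.44) and the spindle checkpoint gene Bub1b (-1.29, SE 0.30). The 3 S-phase genes, of 17 tested and so near the share of all genes, were Ccne1 and the nucleotide synthesis genes Tyms (-0.95, SE 0.28) and Rrm1 (-0.92, SE 0.25). The median log2 difference was -1.55 over the mitotic genes, -0.89 over the S-phase genes, -0.55 over the general growth genes and -0.00 over all genes tested. Of the other genes, Ccnb1 (cyclin B1) gave -1.87 (SE 0.64, adjusted p = 0.0751), Cdk1 -1.38 (SE 0.47, 0.0691), Birc5, which encodes survivin, -1.64 (SE 0.52, 0.0588) and Ube2c, a partner of the anaphase-promoting complex, -1.61 (SE 0.54, 0.0710). Mki67 gave -1.11 (SE 0.55, adjusted p = 0.175) and the topoisomerase gene Top2a -0.90 (SE 0.44, 0.165), both with overlapping tissues. The helicase gene Mcm5 gave -0.90 (SE 0.34, 0.0866), Stmn1, a regulator of microtubules, -1.25 (SE 0.39, 0.0507) and the tubulin gene Tuba1b -0.57 (SE 0.28, 0.152).

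**Figure D2:**
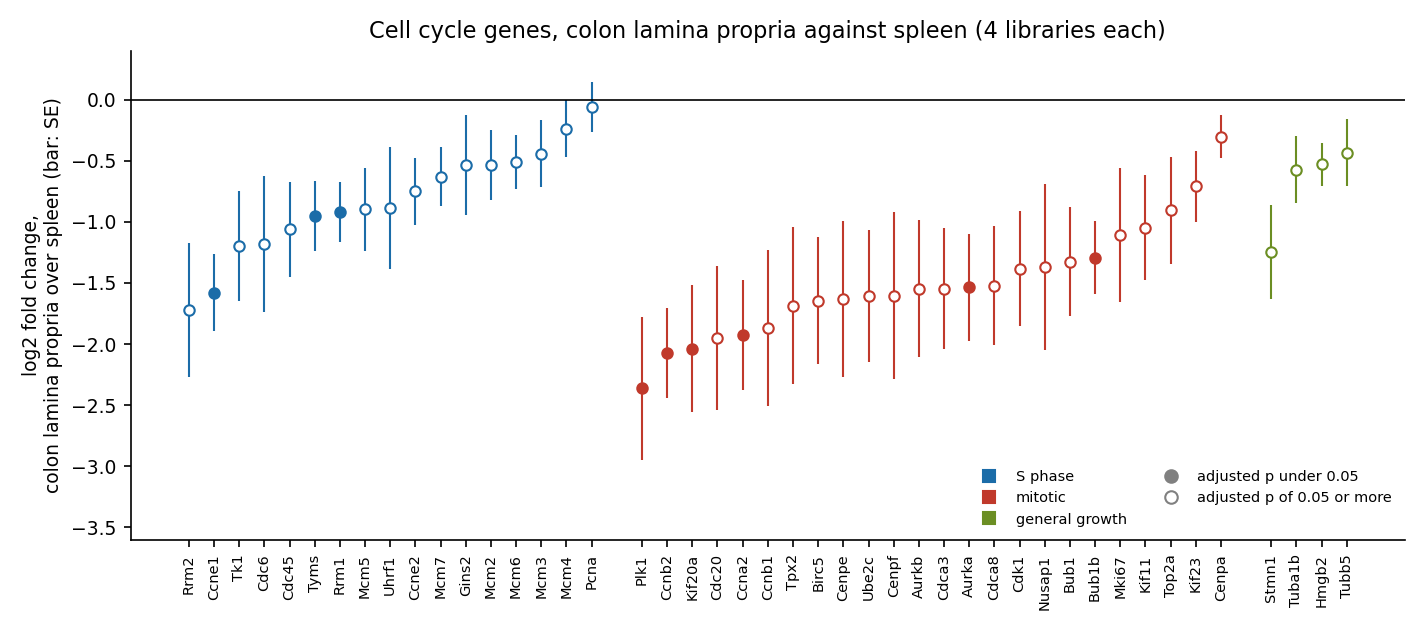
Log2 fold change of each of the 45 genes, colon lamina propria over spleen, with bars of 1 SE, ordered by size within S-phase (blue), mitotic (red) and general growth (green) genes. Filled points are the 9 genes with an adjusted p under 0.05. All points lie below 0, from -2.36 for Plk1 to -0.06 for Pcna.

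With the replicate number as a block, 31 of the 45 genes fell (68.9%), against 18.6% of all genes that fell, 21.4% that rose and 39.9% in either direction. After scaling by the trimmed mean of M-values (TMM), every colon lamina propria library lay below every spleen library for 20 of the 45 genes, against 17.3% of all genes. These were 15 of the 24 mitotic (62.5%) and 4 of the 17 S-phase genes (23.5%), and 1 general growth gene. Within batch 1 this held for 41 of the 45 genes (36.7% of all genes) and within batch 2 for 27 (30.7% of all genes), 22 of them mitotic. The S-phase genes showed no excess within batch 2, with 4 of 17 (23.5%), nor did the general growth genes, with 1 of 4 (25%). Batch 2 was split by genotype. Colon lamina propria KO 2 over spleen KO 2 had a median log2 ratio of -2.22 over the mitotic and -1.40 over the S-phase genes. Colon lamina propria control 2 over spleen control 2 had medians of -0.47 and 0.05, with 12 of the 45 genes above 0. In batch 1 the medians were -2.17 and -0.87 for KO and -2.57 and -1.80 for control. These pair ratios are of CPM without TMM scaling. Over all genes their medians were -0.20 for KO and -0.11 for control in batch 2, and -0.26 and -0.27 in batch 1. Ccnb2 and Ccne1 were called in 19 of 19 alternative settings. The count of 9 genes became 33 without colon lamina propria control 2 and 14 without spleen KO 1. It became 2 without spleen KO 2, spleen control 1 or colon lamina propria KO 1, and 5 without spleen control 2. A lower sum over cells can mean fewer cycling cells or fewer such transcripts per cell, which the sums cannot tell apart. Spleens were homogenized with a plunger and their red cells lysed, whereas intestinal cells were released with a dissociation kit, so tissue and preparation cannot be told apart.

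Other cell cycle genes, on lists that held none of the 45, were counted against the shares of all genes given above, 13.1% that fell and 16.6% that rose. Of 45 further mitotic genes, 23 fell in colon lamina propria and 0 rose, with a median of -1.45, led by Ccnf (-2.49, SE 0.43), the kinesin gene Kif2c (-2.30, SE 0.56) and the checkpoint kinase gene Ttk (-2.19, SE 0.50). Of 36 further replication genes, 4 fell and 2 rose, a share near that of all genes, with a median of -0.55. Among those that fell, Cdca7 (-1.33, SE 0.26), the kinase gene Cdc7 (-1.29, SE 0.26) and the polymerase gene Pold1 (-0.93, SE 0.25) had the largest differences. Among 18 CDK inhibitor and quiescence genes, 9 rose and 4 fell, with a median of 0.89. Cdkn1a, which encodes the CDK inhibitor p21, averaged 271 ± 97.5 CPM in colon lamina propria and 32.1 ± 10.3 CPM in spleen (SD, n = 4 each), a rise of 3.37 (SE 0.30, adjusted p = 0.00041). The antiproliferative genes Tob2 (2.54, SE 0.33) and Btg1 (2.37, SE 0.16) rose as well. The list did not move as a whole. In CPM, its genes Klf2 and Cdkn3 were lower in every colon lamina propria library than in every spleen library. Of 6 G1 cyclin and kinase genes, the D-type cyclin gene Ccnd3 fell (-1.04, SE 0.16) and the other 5 were not called. Among 15 cell cycle transcription factor genes, 1 rose and 3 fell, with Lin54, which encodes a subunit of the DREAM complex, at 3.06 (SE 0.25), E2f2 at -2.64 (SE 0.45) and E2f6 at -0.92 (SE 0.23). Of 13 histone genes, Hist1h1c rose (3.25, SE 0.22) and 4 fell, led by Hist1h1a (-2.71, SE 0.49) and Hist1h2ae (-1.81, SE 0.46). Hist1h1a had 0.121 to 0.529 CPM in colon lamina propria, so its value rests on few UMIs.

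Cells were also counted by phase. Each CD3-positive cell with at least 1500 UMIs (26952 cells) was thinned to 1500 UMIs, and a cell with 3 or more UMIs of S-phase genes or of mitotic genes was put in that class. The classes are ranges of counts, not types. Of these cells, 11.4% were in at least 1 class, 3.94% in the S-phase class alone, 3.45% in the mitotic class alone and 3.97% in both. Of the cells in the mitotic class, 53.5% were also in the S-phase class. The mitotic class held 4.16% of the cells in colon epithelium KO and 7.73% in colon epithelium control, and 1.88% in small intestine KO and 5.39% in small intestine control. It held 2.23% and 3.62% in colon lamina propria KO 1 and 2 and 1.09% and 7.44% in colon lamina propria control 1 and 2. It held 9.84% and 18.02% in spleen KO 1 and 2 and 10.7% and 9.82% in spleen control 1 and 2, so every spleen library lay above every other library. The S-phase class held 7.50% in colon epithelium KO and 9.02% in colon epithelium control, and 3.60% in small intestine KO and 6.01% in small intestine control. It held 3.47% and 5.53% in colon lamina propria KO 1 and 2 and 2.25% and 7.15% in control 1 and 2. Spleen had 6.82% and 16.7% in KO 1 and 2 and 11.6% and 7.68% in control 1 and 2, so spleen overlapped with colon lamina propria control 2 and with colon epithelium in this class. Cells in a class had a median of 5521 UMIs before thinning and the others 2905. The CD3-positive cells left out for having under 1500 UMIs were uneven over libraries. They numbered 0 to 4 per library in batch 1. In batch 2 they ranged from 155 of 3246 in colon lamina propria control 2 to 626 of 3661 in spleen control 2. Small intestine KO lost 174 of 813. How far this loss moved the class shares was not tested, and the thinned Mki67 shares below leave out the same cells.

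**Figure D3:**
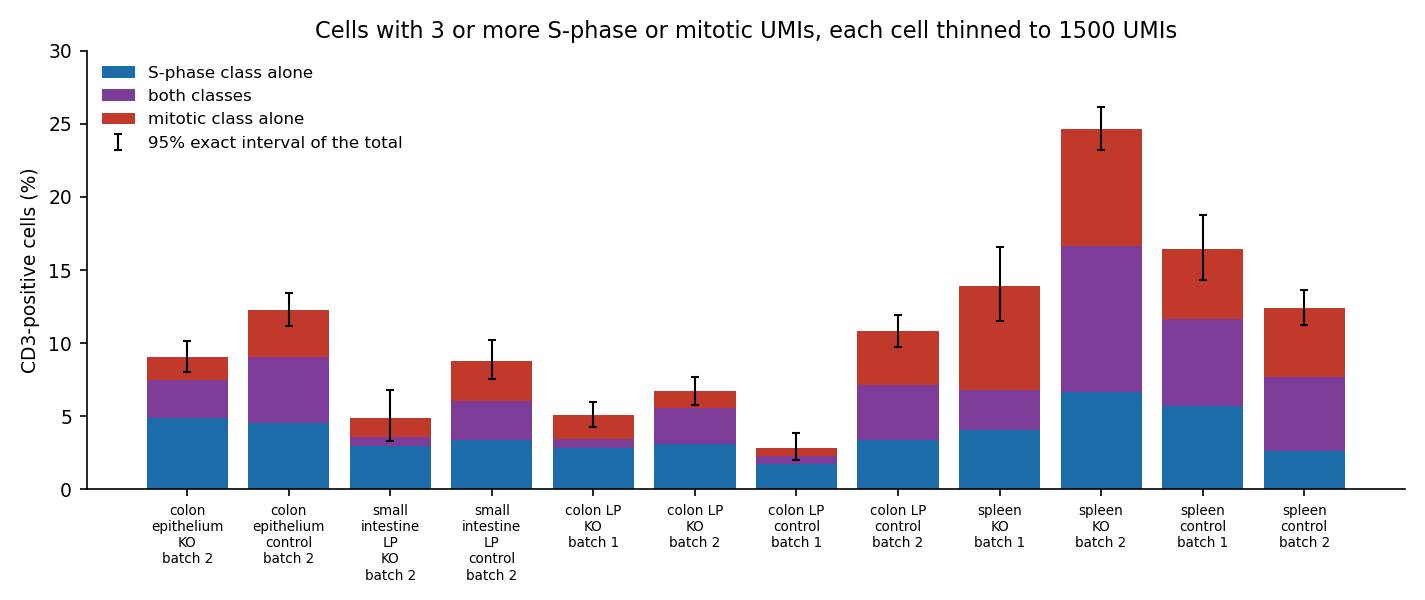
Percentage of CD3-positive cells, each thinned to 1500 UMIs, with 3 or more UMIs of S-phase genes alone (blue), of both groups (purple) or of mitotic genes alone (red), in the 12 libraries. Error bars are exact 95% binomial intervals of the total, which cover counting error only. The total is highest in spleen KO 2 and lowest in colon lamina propria control 1 (2.83%).

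The share of thinned cells with an Mki67 UMI was 1.06% and 2.02% in colon lamina propria KO 1 and 2 and 0.798% and 3.36% in colon lamina propria control 1 and 2. In spleen it was 2.89% and 7.47% in KO 1 and 2 and 4.49% and 4.28% in control 1 and 2. Only colon lamina propria control 2 overlapped with a spleen library. The means were 1.81 ± 1.16% in colon lamina propria and 4.78 ± 1.93% in spleen (SD, n = 4 each). The difference of -2.97 percentage points had an exact 2-sided permutation p = 0.0571, where 4 libraries against 4 cannot go below 0.0286. It was -2.76 within batch 1 and -3.19 within batch 2, and -7.25 without thinning. Of 27 macrophage or monocyte cells with no CD3 UMI and at least 1500 UMIs (median 4857 UMIs, against 3022 in the CD3-positive cells), 0 had an Mki67 UMI, which by the exact 95% interval allows a share of up to 12.8%. Of the same cells, 1 (3.70%) was in the S-phase class and 2 (7.41%) in the mitotic class, and the exact interval of the mitotic share, 0.910% to 24.3%, takes in the values of all 12 libraries.

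The KO libraries were set against the controls to ask whether loss of IL-23 receptor on the transferred cells goes with a change in the cell cycle genes. No gene of the 45 passed in spleen, in colon lamina propria, in the difference between these tissues or over all 12 libraries with tissue as a term. By edgeR, 0% of all genes passed in each of the 4 comparisons. At an unadjusted p under 0.05 stood 128, 123, 114 and 562 of all genes in that order, and DESeq2 called 3, 0, 2 and 5. Of the 45 genes, 1 had an unadjusted p under 0.05 in spleen (the centromere histone gene Cenpa, 0.66, SE 0.25) and 0 in the other 3 comparisons. Mki67 had 32.8 and 93.3 CPM in spleen KO 1 and 2, against 51.8 and 57.7 CPM in spleen control 1 and 2. KO thus held both the lowest and the highest value, and the difference was 0.18 (SE 0.76). In colon lamina propria Mki67 had 14.0 and 26.5 CPM in KO 1 and 2, against 7.81 and 46.9 CPM in control 1 and 2, a difference of -0.35 (SE 0.77).

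The 2 batches ran in opposite directions in both tissues. In spleen the median log2 ratio of KO over control was -0.24 over the mitotic and -0.51 over the S-phase genes in batch 1. In batch 2 it was 1.05 and 0.85, with 45 of 45 genes positive. In colon lamina propria the medians were 0.12 and 0.38 in batch 1, against -0.79 and -0.47 in batch 2. The small intestine pair gave -1.31 and -1.14, with 0 of 45 genes positive, and the colon epithelium pair -0.62 and -0.24, with 1 of 45 positive. These tissues had 1 pair each, and the small intestine KO library held 813 CD3-positive cells, 50.6% of its cells. Ccnb1 gave 0.71 (SE 0.87) in spleen and -0.71 (SE 0.90) in colon lamina propria. Ccna2 gave 0.49 (SE 0.61) and -1.08 (SE 0.64), Rrm2 0.37 (SE 0.76) and -0.13 (SE 0.76), and Pcna 0.13 (SE 0.29) and 0.27 (SE 0.29). Over all 12 libraries the largest shift among these was Ccna2 at -0.60 (SE 0.46), and Ccne1 had the smallest p of the 45 genes (-0.55, SE 0.30, unadjusted p = 0.0954, edgeR adjusted p = 0.994). Without spleen KO 2 the spleen value of Mki67 became -0.72, and without colon lamina propria control 2 its colon value became 1.24. These comparisons use the same libraries as the one between tissues.

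**Figure D4:**
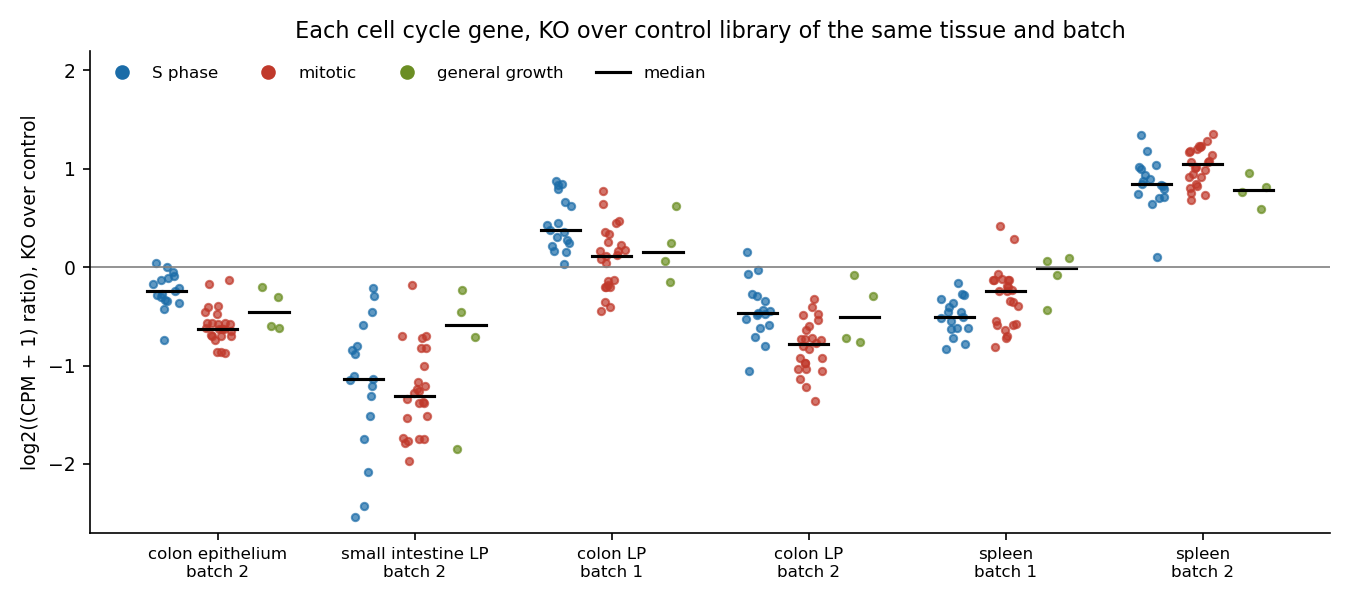
Log2 ratio of KO over control, log2((CPM + 1) ratio), for each of the 45 genes in each pair of libraries of the same tissue and batch, by role, with medians as black lines. All 45 points lie below 0 in the small intestine pair and above 0 in the spleen pair of batch 2. The mitotic medians of the 2 batches lie on opposite sides of 0 in spleen and in colon lamina propria.

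Small intestine lamina propria was set against colon lamina propria within batch 2, where the KO and the control library of a tissue stand as its 2 replicates. None of the 45 genes passed, against 0.00896% of 11155 genes by edgeR (92 by DESeq2, and 982 before adjustment). Values were negative for 44 of the 45 genes, with medians of -0.68 over the mitotic and -0.32 over the S-phase genes. The kinetochore gene Cenpf had 3.15 CPM in small intestine KO and 8.77 CPM in small intestine control, against 13.6 CPM in colon lamina propria KO 2 and 21.1 CPM in control 2 of colon lamina propria. All of its small intestine values lay below its colon values, with a difference of -1.38 (SE 0.63, adjusted p = 0.586), the lowest of the 24 mitotic genes. Its small intestine KO value rests on 6 UMIs. With 2 libraries against 2 such separation arises easily by chance, and its share over all genes was not counted. Mki67 gave -0.65 (SE 0.53), Cdk1 -1.07 (SE 0.74) and Mcm5 -0.22 (SE 0.46). The KO pair had medians of -1.08 over the mitotic and -0.76 over the S-phase genes, and the control pair -0.60 and -0.17.

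Colon epithelium was set against colon lamina propria in the same way. None of the 45 genes passed, while 12.2% of all genes did, 4.63% higher and 7.57% lower. That is 516 genes higher and 844 lower; with library size alone it was 1174 and 600, and the median of all genes moved to 0.20. The values were positive for 34 of the 45 genes, with medians of 0.21 over the mitotic and 0.14 over the S-phase genes. Ccne1 had 18.7 CPM in colon epithelium KO and 24.03 CPM in colon epithelium control, against 6.63 and 12.3 CPM in colon lamina propria KO 2 and control 2. The tissues did not overlap, and the difference was 1.01 (SE 0.43, adjusted p = 0.193), the highest of the 17 S-phase genes. Here too the share of all genes without overlap was not counted. Aurka gave 0.81 (SE 0.54), Mki67 -0.29 (SE 0.48) and Pcna -0.47 (SE 0.25). The KO pair had medians of 0.49 over the mitotic and 0.44 over the S-phase genes, and the control pair 0.34 and 0.20, where all genes had 0.22 and 0.11. Of the 18 inhibitor and quiescence genes 4 fell in colon epithelium and 0 rose, led by Tob1 (-1.97, SE 0.32), Tob2 (-1.47, SE 0.26) and Btg1 (-1.15, SE 0.19). Lin54 fell (-2.33, SE 0.21) and Lin37, also a DREAM subunit gene, rose (0.83, SE 0.13). The G1 genes Cdc25a (0.83, SE 0.22) and Ccnd3 (0.51, SE 0.13) rose, 2 of 6. Of the 36 further replication genes, Cdc7 rose (1.37, SE 0.27) and 3 fell, among them Dbf4, which encodes its activating partner (-0.88, SE 0.19), and Atad2 (-0.82, SE 0.19). Of the 45 further mitotic genes 0 were called, and of 12 histone genes only Hist1h1c fell (-1.13, SE 0.19). All libraries of both tissues in this comparison were of batch 2.

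Cells with an Mki67 UMI were compared with the other CD3-positive cells of their own library, as a description, because Mki67 is 1 of the 45 genes and cells with more UMIs are more likely to show it. There were 2100 such cells (7.09%), 14.4% of all UMIs came from them, and 11 libraries had at least 20. Their median was 2818 to 10556 UMIs per cell, against 2266 to 5426 in cells without an Mki67 UMI. The median ratio of CPM over libraries was 15.9 over the 23 other mitotic genes, 5.89 over the S-phase genes and 5.69 over the general growth genes, against 1 over 8975 genes with 50 or more UMIs in the Mki67-positive cells. The spindle gene Nusap1 had the highest ratio (27.6), followed by Ccna2 (23.0) and Ube2c (20.9). Cenpa was the lowest of the mitotic genes (4.57). Among the S-phase genes Rrm2 (16.2) and the thymidine kinase gene Tk1 (11.5) led, and the helicase genes Mcm4 (2.80) and Mcm6 (2.85) came last. Stmn1 reached 14.3.

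**Figure D5:**
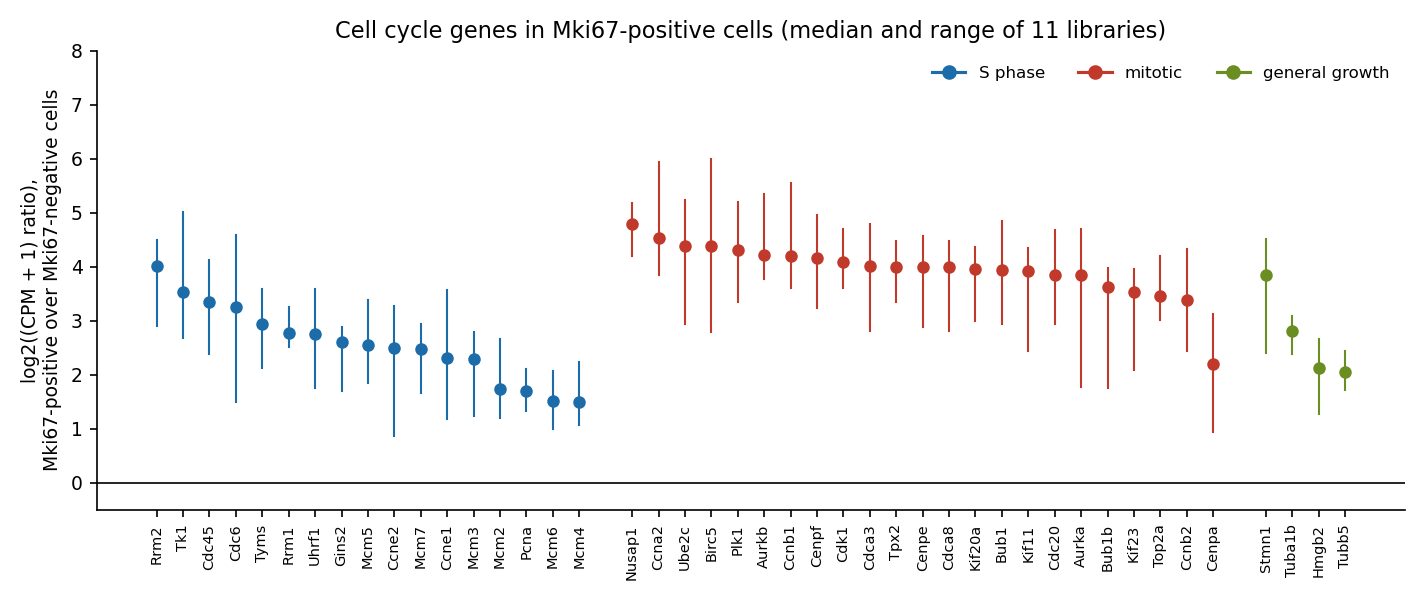
Log2 ratio of CPM + 1 between Mki67-positive and Mki67-negative CD3-positive cells for the 44 other cell cycle genes, as the median (point) and the range (line) over 11 libraries. All ranges lie above 0, and the mitotic medians reach from 4.57-fold for Cenpa to 27.6-fold for Nusap1 on the linear scale.

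Mitotic RNA was also summed within the Mki67-positive cells of each library. The sum of the 23 other mitotic genes in Mki67-positive cells was 1812 and 4078 CPM in colon lamina propria KO 1 and 2 and 2314 and 4522 CPM in control 1 and 2. In spleen it was 4006 and 7962 CPM in KO 1 and 2 and 4765 and 6544 CPM in control 1 and 2. Colon lamina propria KO 2 and control 2 lay above spleen KO 1, so the tissues overlapped over both batches, while within each batch the 2 colon lamina propria libraries lay below the 2 spleen libraries. The difference was not tested. In Mki67-negative cells the same sum was 166 to 312 CPM in colon lamina propria and 333 to 745 CPM in spleen.

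Markers of T cell state were also read in the Mki67-positive cells. Gzma, which encodes granzyme A, was higher in 11 of 11 libraries with a median ratio of 1.89, and Gzmb was higher in 9 of 11 with 1.41. Other effector genes had ratios below 1, namely Ifng (0.743), Tbx21, which encodes T-bet (0.840), Klrg1 (0.808), Cxcr6 (0.711) and Il2rb (0.877). Il7r, the receptor for the survival cytokine IL-7, was lower in 11 of 11 libraries (ratio 0.40). Tcf7, a factor of naive and memory T cells, had a ratio of 0.43 and was higher in 1 of 11 libraries, and Cd4 itself had a ratio of 0.69. Outside the 45 genes the highest ratios belonged to the histone gene Hist1h2ap (23.6), Mxd3, Esco2, Pbk, 2810417H13Rik, Hmmr, Spc25, Nuf2, Shcbp1 and Neil3, and the lowest to Kdm5b (0.208), Tcp11l2 (0.242), the chemokine gene Ccl4 (0.251) and Ccr7 (0.325). Kdm5b had 51 UMIs in the Mki67-positive cells.

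Over the 12 libraries the genes outside the 45 whose log2(CPM + 1) most resembled that of Mki67 were Smc2 (Pearson r 0.976), Cenpm (0.974), Mtch2 (0.972), Exosc8 (0.972), Cks1b (0.970), Pmf1 (0.967), Spg21, Erh, 2810417H13Rik and Esco2 (0.964). Of 6721 genes with a mean of 10 CPM or more, 195 exceeded 0.9 and the median was 0.41. Of the 41 other cell cycle genes that reached that mean, 32 exceeded 0.9, led by Cdca8 (0.971), which encodes a chromosomal passenger protein. The lowest were Pcna (0.454), Cenpa (0.660) and Hmgb2 (0.723). The 12 points share tissue, batch and cell depth, so these values describe likeness only.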

How the data were processed

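The deposited file held counts: per the labels the authors prepared 10x 3′ version 2 libraries, and the matrix gives whole-number UMI counts of 18601 genes in 32763 cells. Cell Ranger 2.0.2 and the mm10 build appear in the submitters' processing notes, without roles. The authors' filters on cells are not stated there or in the labels. Doublets were not called or removed. The labels do not say whether libraries came from separate animals, so p-values measure the spread between libraries, which may be technical. The cell table has 2 further columns, which were not used.

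Genes, lists and settings were chosen with earlier results of these data known. UMIs of CD3-positive cells were summed per gene and library and tested with edgeR 4.0.16 (quasi-likelihood, robust, TMM factors, filterByExpr, R 4.3.3), with Benjamini-Hochberg adjustment over all genes tested and a threshold of 0.05. SEs are the log2 fold change divided by the root of its F statistic. Spleen and colon lamina propria (8 libraries) shared 1 fit. The other fits were the 12 libraries with tissue, and the 8 of batch 2 with genotype. The fits were tested on simulated data. CPM are not scaled by TMM: without those factors the median of all genes was -0.25 (log2) in colon lamina propria over spleen, so fold changes are relative to that shift. Named genes were 12 fixed cell cycle genes, up to 10 further ones past the threshold per comparison, and up to 3 per other list and comparison, the rest being counted. Fold changes of Ccna2, Ccne1, Cenpa, Cenpf and Aurka in comparisons without a call were chosen after their values were seen.

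Same-numbered libraries deviated together from their group means (correlations 0.349 to 0.610 over 6676 genes), and the number is the Batch of the cell table. The numbers could thus pair samples, but the main fits and the permutation test of the Mki67 share did not use them. The pairing entered only as the replicate block, an alternative setting. Alternatives were DESeq2 1.42.0, its size factors, no TMM factor, no filter, other cell sets (all cells, CD3 minimum 1 or 5, no cells with markers of another type, mitochondrial share up to 10%), cells thinned to 1500 UMIs, the replicate block and leaving out each library. Shares used cells thinned to 1500 UMIs, with exact 95% binomial intervals that cover counting error only. Macrophages and monocytes gave the background share in place of B cells, of which 1 was found, a choice made after seeing the data.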

Additional observations from a re-analysis of the deposited data

Results flagged for a closer look

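Of 68 combinations of a value and a set of 4 or 6 libraries, 16 held a library far from the others by Dixon's test. By chance the test flags about 1 of 20 sets drawn from 1 population. The sets of 6 mix tissues, and the values share genes and libraries, so the count of 16 cannot be set against that rate. In 15 of the 16 combinations the library was spleen KO 2. Among the 4 spleen libraries it stood apart for Ccnb1 (119 CPM), Birc5 (286 CPM), Ube2c (257 CPM), Stmn1 (655 CPM), the summed mitotic level (2779.9 CPM) and the share of cells in the mitotic class (18.02%). Among the 6 KO libraries it stood apart for Mki67 (93.3 CPM), Top2a (251 CPM), Ccnb1 (119 CPM), Cdk1 (129.8 CPM), Rrm2 (330.0 CPM), Tuba1b (913 CPM), the summed mitotic level (2779.9 CPM), the share of cells with an Mki67 UMI (7.47%) and the share in the S-phase class (16.7%). Among the 6 control libraries spleen control 1 stood apart for Pcna (212 CPM, against 137 CPM in the next).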

How the results depend on the processing

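Settings other than leaving out a library kept the direction and the side of the threshold for 949 values of single genes; 31 passed only in the alternative, 9 only in the original setting, and 23 turned in direction, all of them in genes that had not passed. In colon lamina propria over spleen the count of 9 cell cycle genes became 16 with library size alone, 28 with DESeq2, 39 without the filter on low counts, 4 with all cells, 14 with thinned cells and 31 with the replicate block. The Mki67 share had p = 0.125 with the replicate block as an exact sign test over 4 pairs, which cannot go below 0.125. This p therefore does not show a weaker difference under pairing. The block changed no other call among the 45 genes. Without the filter 1 of the 45 genes passed for KO in colon lamina propria and 3 passed in the difference between tissues. The cause was not tested.

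Under the block, KO over control turned to -0.052 for Mki67, -0.011 for Mcm5 and -0.053 for Tyms in spleen, and to 0.0085 for Mcm5 and 0.066 for Rrm2 in colon lamina propria. Mcm5 turned to 0.019 in the difference between tissues and Tuba1b to -0.022 over tissues. In colon epithelium Mcm5 turned to 0.13, where the block setting also took in the colon lamina propria libraries of batch 1. Thinned cells gave Rrm2 0.017 for KO in colon lamina propria, Tuba1b 0.043 in the difference, Pcna 0.16 over spleen and Top2a 0.055 over tissues. All cells gave Pcna 0.0065 over spleen, and Pcna -0.023 and Tuba1b -0.030 for KO over tissues. Without cells bearing markers of another type, Mcm5 was 0.024 for KO in colon lamina propria and 0.030 in colon epithelium. Tuba1b over tissues was -0.0069 without the filter, -0.0061 and -0.023 with CD3 minimums of 1 and 5, and -0.00073 under the mitochondrial limit. With library size alone, a setting chosen after seeing the data like the block for the Mki67 share, Top2a and Mcm5 were 0.13 in colon epithelium.

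Leaving out 1 library at a time moved the count of 9 between 2 and 33, that of small intestine between 0 and 2 and that of colon epithelium between 0 and 5. The 2 small intestine calls came without spleen control 2 or spleen KO 2, which are in that fit, the 5 colon epithelium calls without either of the same libraries, and 1 without small intestine KO. Log2 differences that turned in direction spanned, for KO in spleen, Mki67 -0.72 to 0.70, Top2a -0.83 to 0.96, Ccnb1 -0.21 to 1.25, Cdk1 -0.43 to 1.07, Birc5 -0.054 to 0.79, Ube2c -0.12 to 1.005, Mcm5 -0.34 to 0.49, Pcna -0.25 to 0.62, Rrm2 -0.45 to 0.87, Tyms -0.44 to 0.38, Tuba1b -0.30 to 0.74. For KO in colon lamina propria they spanned Mki67 -1.08 to 1.24, Top2a -0.73 to 0.47, Ccnb1 -1.59 to 1.06, Cdk1 -0.84 to 0.68, Birc5 -1.37 to 0.89, Ube2c -1.55 to 0.58, Mcm5 -0.58 to 0.80, Rrm2 -0.85 to 1.36, Tyms -0.57 to 0.52, Stmn1 -0.93 to 0.89, Tuba1b -0.25 to 0.49. In the difference between tissues they spanned Mki67 -1.25 to 1.06, Top2a -1.21 to 0.59, Ccnb1 -2.30 to 0.34, Cdk1 -1.35 to 0.16, Birc5 -1.80 to 0.46, Ube2c -2.11 to 0.017, Mcm5 -0.66 to 0.72, Pcna -0.36 to 0.52, Rrm2 -1.21 to 0.996, Tyms -0.60 to 0.49, Stmn1 -1.37 to 0.44, Tuba1b -0.66 to 0.39. For KO over tissues they spanned Top2a -0.50 to 0.070, Ccnb1 -0.71 to 0.17, Cdk1 -0.57 to 0.053, Ube2c -0.62 to 0.079, Pcna -0.073 to 0.14, Rrm2 -0.59 to 0.039, Tuba1b -0.20 to 0.098. Colon lamina propria over spleen had Pcna -0.25 to 0.17, small intestine had Mcm5 -1.02 to 0.18, Pcna -0.66 to 0.045, and colon epithelium had Top2a -0.29 to 0.21, Ccnb1 -0.026 to 0.82, Cdk1 -0.017 to 0.70, Birc5 -0.17 to 0.38, Ube2c -0.28 to 0.55, Mcm5 -0.20 to 0.12, Stmn1 -0.050 to 0.14, Tuba1b -0.22 to 0.32. Shares of cells in a class rose with a class minimum of 2 UMIs, with 20.5% of all cells in at least 1 class. Depth limits the values of small intestine KO, which had 813 CD3-positive cells.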

Other observations

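Cells under the CD3 threshold, which entered none of the comparisons, held cell cycle transcripts too. In spleen KO 2 these 168 cells had a mitotic sum of 1035 CPM and an S-phase sum of 879 CPM, beside 74507 CPM of the haemoglobin gene Hbb-bs. In spleen control 1 the 255 such cells had 86.5 CPM mitotic and 312 CPM S-phase, with 3321 CPM of Hbb-bs. In colon epithelium KO the 156 such cells had a mitotic sum of 1024 CPM, against 785 CPM in the CD3-positive cells of that library. In small intestine KO the 793 such cells had 119.5 CPM mitotic and 258 CPM S-phase.

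The summed level of the 18 CDK inhibitor and quiescence genes was 3507 to 4146 CPM in the 2 colon epithelium libraries, 6874 to 7531 CPM in the 2 small intestine libraries, 4898 to 6546 CPM in the 4 colon lamina propria libraries and 2849 to 3593 CPM in the 4 spleen libraries. Btg1 was the largest term in every gut library. It had 1881 to 2280 CPM in colon epithelium, 4585 to 5047 CPM in small intestine and 2970 to 4136 CPM in colon lamina propria. In spleen it had 705 to 1029 CPM. Klf2 was the largest term in spleen, at 1142 to 1717 CPM, and was lower in every other library. The sum was made up largely of these genes, so it does not give a level of the list as a whole.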
